A study of Homo sapiens with 12 samples.

Results

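Ephrins, semaphorins, plexins and their receptors were described across all libraries of 2 pancreatic ductal adenocarcinoma (PDAC) cell lines. Members were taken by gene symbol alone, as every Eph receptor, ephrin, semaphorin of classes 3 to 7, plexin and neuropilin in the deposited gene tables, and 53 of the 48114 listed genes matched. They comprised 14 Eph receptors, 8 ephrins, 7 secreted semaphorins (class 3), 13 membrane semaphorins (classes 4 to 7), 9 plexins and 2 neuropilins.

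PANC-1 cells, an epithelioid ductal carcinoma line that the study used as a basal-like model, were transfected for 48 h with a control siRNA (siCtrl) or with 40 nM siRNA against the RNA binding proteins QKI (siQKI) or RBFOX2 (siRBFOX2). HPAF-II cells, an adenocarcinoma line that the study used as a classical model, received siCtrl for 48 h according to their labels. Each of the 4 groups had 3 libraries of polyA RNA, described as biological replicates, and no batch was given. In bulk RNA from such cultures, fewer expressing cells and less RNA per cell cannot be told apart.

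Eph receptors are receptor tyrosine kinases that bind ephrins on neighbouring cells: EphA receptors mainly bind the lipid-anchored ephrin-As and EphB receptors mainly the transmembrane ephrin-Bs, and both partners can signal. Semaphorins signal through plexins, which act on small GTPases, and most class 3 semaphorins need a neuropilin as the binding co-receptor. First known for steering axons and vessels, these families also set cell spacing, adhesion and migration in epithelia and carcinomas.

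QKI binds RNA at the letters ACTAAC (written as DNA) and RBFOX2 at TGCATG, so both were searched on the sense strand of the longest coding transcript of each gene in GENCODE release 29 (hg38). ACTAAC stood in 11 of 48 members that were tested below (22.9%), against 27.0% of 14135 tested genes with a coding transcript. Its frequency was 0.0461 sites per kb in members and 0.0926 per kb in all those genes. Of the members that rose after siQKI, 7 of 27 held it (25.9%), of those that fell 2 of 6, and of those that did neither 2 of 15 (13.3%). TGCATG stood in 32 of 48 members (66.7%) and in 55.7% of all those genes. It stood in 9 of 12 members that rose after siRBFOX2, in 2 of 5 that fell and in 21 of 31 that did not pass the threshold (67.7%). Per kb it was less frequent in members, with 0.226 sites against 0.262, and their median transcript length was 5218 bases against 3333. A match in these windows is a description of the letters and not a binding site, and intronic sequence was not searched. The windows below show the motif in capitals with 10 bases on each side for the 9 members that held ACTAAC and changed after siQKI. Coordinates are those of the motif. In 3′ UTRs it lay at chr2:221419721-221419726 (minus strand) in EPHA4, chr1:22917096-22917101 (plus) in EPHB2, chr7:83959311-83959316 (minus) in SEMA3A and chr15:90229478-90229483 (plus) in SEMA4B. In coding sequence it lay at chr6:93411069-93411074 (minus) in EPHA7, chr3:127022780-127022785 (plus) in PLXNA1, chrX:154468117-154468122 (plus) in PLXNA3, chr7:80765203-80765208 (minus) in SEMA3C and chr3:122912922-122912927 (minus) in SEMA5B.
EPHA4: tagctgtcacACTAACcttaataaga
EPHB2: atggctgtttACTAACcagcagtgcc
SEMA3A: tctaaactgtACTAACattcagtgtt
SEMA4B: aacacgaggaACTAACtgcaccctgg
EPHA7: ctggctgcggACTAACtggatttcca
PLXNA1: gaagatgctaACTAACtggttcacct
PLXNA3: caatgagctgACTAACcacatggacg
SEMA3C: tgttcttcctACTAACaactctgtca
SEMA5B: gagaacgtgcACTAACccggagcccc

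Of the 3 members that rose at least 1.5-fold after siRBFOX2, SEMA4G and SEMA5B held TGCATG in this transcript and EPHA4 did not. The SEMA4G motif shown lay on the plus strand at chr10:100977688-100977693 in coding sequence. The SEMA5B motif lay on the minus strand at chr3:122992809-122992814 in the 5′ UTR.
SEMA4G: cccacctctaTGCATGtgggactcac
SEMA5B: ctgatttcccTGCATGgtgcccgcag

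PANC-1 values are given as normalized counts, which are counts per gene after the authors' division by a library size factor. How many fragments stand behind a value is not known, so precision rests on the replicates. The normalized count of QKI averaged 25533 in siCtrl and 5034 in siQKI libraries, 19.7% of the control, and that of RBFOX2 averaged 15429 in siCtrl and 2095 in siRBFOX2 libraries, 13.6% of the control. RBFOX2 was also lower after siQKI (log2 fold change −0.29, limma, adjusted p = 0.0207). All 6 ductal epithelial markers (KRT7, KRT8, KRT18, KRT19, EPCAM and CDH1) were detected in every group. Of these, CDH1 rose (log2 fold change 1.39) and KRT18 fell (−0.20) in siQKI, while CDH1 rose (0.53) and KRT8, KRT18 and KRT19 fell (−0.35 to −0.23) in siRBFOX2 (limma, adjusted p from 1.54e-07 to 0.00716). Of 4 mesenchymal markers (VIM, ZEB1, CDH2 and FN1), VIM and ZEB1 fell (−0.13 and −0.28) and CDH2 rose in siQKI, and CDH2 rose in siRBFOX2 (limma, adjusted p from 0.000513 to 0.0152). Their part in the members' changes was not tested. Of 11 markers of immune, endothelial, acinar, islet and Schwann cells, 10 averaged under 1 count per 1000000 in each group. The exception was CD68, a lysosomal protein of macrophages that carcinoma lines can also express, with a mean normalized count of 54414 in siCtrl, 38570 in siQKI and 43259 in siRBFOX2 libraries.

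Guidance genes rose after QKI depletion. A total of 48 members averaged 10 or more normalized counts over the 9 PANC-1 libraries and were tested with limma on the log2 scale, with adjustment over all 22544 genes tested. The other 5 (EPHA1, EPHA3, EPHA6, PLXNA4 and SEMA5A) were too low. After siQKI, 27 of 48 members rose (56.2%) where 14.9% of all tested genes rose, and 6 fell (12.5%) where 18.1% of all tested genes fell. The median log2 fold change of the members was 0.38, against 0.03 over all tested genes. A rise of at least 1.5-fold was found for 13 members (background 5.87%) and a fall of that size for 0 members (background 3.16%).

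The direction of change depended on level in the whole table, so members were also read within level classes. Among members with a mean of 100 to 2000 normalized counts, 12 of 16 rose after siQKI, where 19.9% of all genes in that class rose. All 12 rose at least 1.5-fold, but the share of all genes in that class with such a rise was not counted. Among members with a mean of 2000 or more, 15 of 25 rose and 6 fell, where 19.7% of genes in that class rose and 36.4% fell. Of these 25, only NRP2 changed by at least 1.5-fold. None of the 7 tested members with a mean under 100 passed the threshold. At 100 to 2000 normalized counts the median log2 fold change in siQKI was 0.791 in members and 0.162 in all genes. At 2000 or more it was 0.206 in members and −0.067 in all genes.

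**Figure D1:**
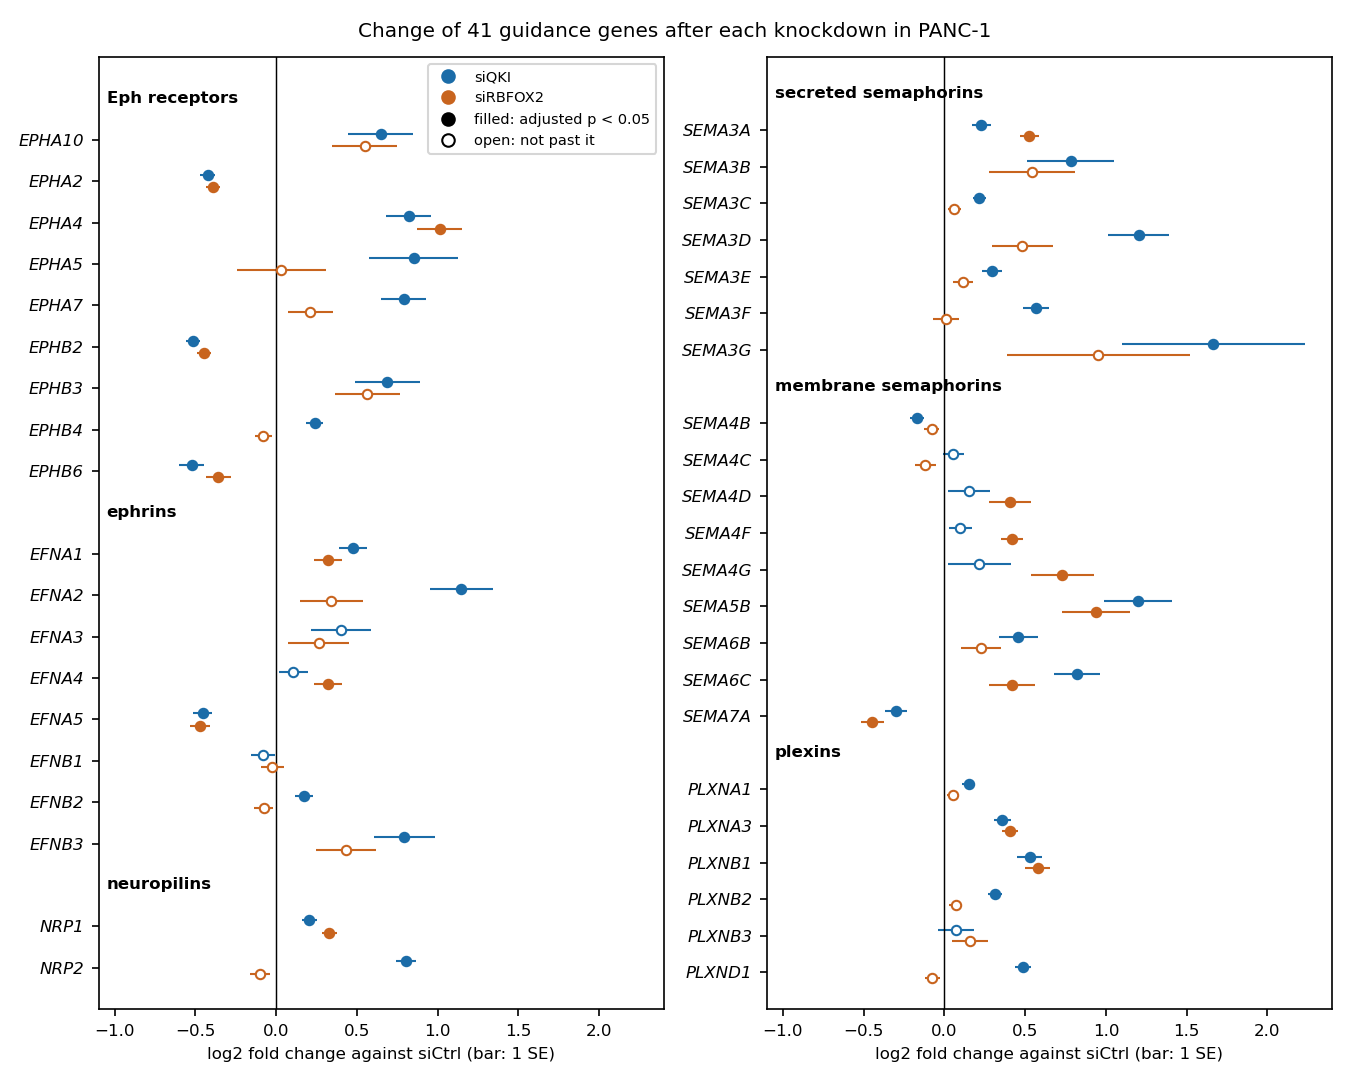
Log2 fold change against siCtrl (horizontal axis; bars, 1 SE; 3 libraries per group) of the 41 guidance genes that averaged 100 or more normalized counts, for siQKI in blue and siRBFOX2 in orange, with filled points past an adjusted p of 0.05. All 7 secreted semaphorins lie to the right of zero with filled blue points, while EPHA2, EPHB2, EPHB6, EFNA5 and SEMA7A lie to the left with both points filled.

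All 7 secreted semaphorins rose past the threshold in siQKI, where 14.9% of all tested genes rose. Their log2 fold changes were 0.22 to 1.67, with a median of 0.57. The libraries of SEMA3B and SEMA3G overlapped those of the control, and their calls depended on single libraries (below). In siRBFOX2 SEMA3A passed the threshold, and the median of the family was 0.48. Both knockdowns were set against the same siCtrl libraries, so the contrast between siQKI and siRBFOX2 libraries, which does not use the controls, was tested as well. In it, 11 of 48 guidance genes were higher in siQKI (background 9.93%) and 2 were lower (background 11.6%). Of the 7 secreted semaphorins, 3 were higher and 1 was lower in siQKI in that contrast.

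SEMA3F, a repellent ligand that binds NRP2, had 10791, 10205 and 9831 normalized counts in the siCtrl libraries, 16661, 14916 and 14114 in siQKI and 11193, 11025 and 8899 in siRBFOX2. All siQKI libraries lay above all others, and the siRBFOX2 libraries overlapped the controls. The log2 fold change was 0.57 ± 0.08 (SE, n = 3 per group; limma, adjusted p = 6.35e-05) in siQKI and 0.01 ± 0.08 (adjusted p = 0.965) in siRBFOX2. Its difference between the knockdowns was 0.56 (limma, adjusted p = 0.000136).

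SEMA3D, a secreted semaphorin of heart and vessel development, had 390, 332 and 345 normalized counts in siCtrl, 1034, 728 and 727 in siQKI and 416, 622 and 471 in siRBFOX2 libraries. Every siQKI library lay above every other library. The log2 fold change of 1.20 ± 0.19 in siQKI (limma, adjusted p = 0.000149) stood beside 0.48 ± 0.19 in siRBFOX2, which did not pass the threshold (limma, adjusted p = 0.0754). The contrast of the knockdowns gave 0.72 (limma, adjusted p = 0.012), and it missed the threshold when siQKI replicate 1 or siRBFOX2 replicate 1 was left out (adjusted p = 0.0734 and 0.0585).

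SEMA3A, the NRP1 ligand that collapses growth cones, was 1 of the 2 members lower in siQKI than in siRBFOX2 libraries, the other being SEMA4F. It had 5155, 5056 and 5102 normalized counts in siCtrl, 6347, 5554 and 6078 in siQKI and 7391, 7437 and 7226 in siRBFOX2 libraries. The groups did not overlap. SEMA3A rose by a log2 fold change of 0.23 in siQKI (limma, adjusted p = 0.0058) and of 0.53 in siRBFOX2 (adjusted p = 8.37e-06), and siQKI lay below siRBFOX2 by −0.30 (adjusted p = 0.00148).

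SEMA3C, the most abundant secreted semaphorin of PANC-1 per kb, changed little in size. Its normalized counts were 41480, 41427 and 43712 in siCtrl, 48681, 48704 and 49708 in siQKI and 43724, 46015 and 42365 in siRBFOX2 libraries. The siQKI libraries lay above the others, with a log2 fold change of 0.22 ± 0.04 (limma, adjusted p = 0.00062), while siRBFOX2 overlapped siCtrl. SEMA3E, which binds PLXND1 without a neuropilin, had 3537, 3987 and 3938 normalized counts in siCtrl, 4812, 4623 and 4602 in siQKI and 4205, 4083 and 4114 in siRBFOX2 libraries. Its log2 fold change was 0.29 in siQKI (limma, adjusted p = 0.0019) and 0.12 in siRBFOX2 (adjusted p = 0.208).

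SEMA3B and SEMA3G were low and uneven. SEMA3B, studied as a candidate tumour suppressor of 3p21, had 334, 524 and 258 normalized counts in siCtrl, 715, 684 and 470 in siQKI and 512, 710 and 383 in siRBFOX2 libraries. SEMA3G had 176, 29 and 52.3 in siCtrl, 157, 186 and 305 in siQKI and 225, 120 and 74.1 in siRBFOX2 libraries. In both genes the siQKI and siCtrl libraries overlapped. Their differences between the knockdowns did not pass the threshold (0.24 and 0.71, limma, adjusted p = 0.606 and 0.439). Their siQKI calls (log2 fold change 0.78, adjusted p = 0.0364, and 1.67, adjusted p = 0.0339, limma) rested on single libraries. That of SEMA3B was lost without siCtrl replicate 1 or 3 or siQKI replicate 1 or 2, with values down to 0.55 (adjusted p = 0.17). That of SEMA3G was lost without siCtrl replicate 2 or 3 or siQKI replicate 2 or 3, with values down to 1.10 (adjusted p = 0.154).

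Receptors for these ligands moved with different sizes. NRP2, the neuropilin that binds SEMA3F and the lymphatic growth factor VEGF-C, had 3437, 3290 and 3314 normalized counts in siCtrl, 5984, 5946 and 5583 in siQKI and 3025, 3086 and 3261 in siRBFOX2 libraries. The siQKI libraries stood apart at the top, and the siRBFOX2 libraries lay just under the lowest control. Its log2 fold change was 0.80 ± 0.06 in siQKI (limma, adjusted p = 1.35e-07) and −0.10 ± 0.06 in siRBFOX2 (adjusted p = 0.272), and the difference of 0.90 (adjusted p = 1.17e-07) was the largest among the 13 members that differed between the knockdowns. NRP2 lies on the plus strand at chr2:205681838-205798132.

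NRP1, which binds SEMA3A and VEGF-A, had 15711, 14779 and 14739 normalized counts in siCtrl, 17514, 18284 and 16405 in siQKI and 19438, 18628 and 18792 in siRBFOX2 libraries. Both knockdowns lay above the control. Log2 fold changes were 0.21 in siQKI (limma, adjusted p = 0.00371) and 0.33 in siRBFOX2 (adjusted p = 0.000126), and their difference did not pass the threshold (−0.12, adjusted p = 0.0833). NRP2 thereby made up 16.4% ± 0.19 (SD, n = 3) of the neuropilin counts per kb in siCtrl, 22.9% ± 0.48 in siQKI and 12.7% ± 0.60 in siRBFOX2 libraries.

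Among plexins, 5 of 8 tested members rose in siQKI (62.5%, where 14.9% of all tested genes rose) and 0 fell, and 2 rose in siRBFOX2 (25.0%, where 12% rose). PLXND1, the receptor of SEMA3E, is given per library although its values were seen first. It had 16565, 17642 and 17289 normalized counts in siCtrl, 24453, 24007 and 23695 in siQKI and 17285, 16372 and 15267 in siRBFOX2 libraries. All siQKI libraries lay above the others. The log2 fold change was 0.49 ± 0.05 in siQKI (limma, adjusted p = 1.85e-06) and −0.08 in siRBFOX2 (adjusted p = 0.297), with a difference of 0.56 (adjusted p = 1.05e-06).

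PLXNB2, a receptor of class 4 semaphorins and the most abundant plexin per kb of the longest transcript in both lines, had 37934, 38876 and 36775 normalized counts in siCtrl, 48313, 46385 and 46409 in siQKI and 40656, 40608 and 37921 in siRBFOX2 libraries. It rose by 0.31 on the log2 scale in siQKI (limma, adjusted p = 2.57e-05), and siRBFOX2 overlapped the control. PLXNB1, the receptor of SEMA4D, and PLXNA3 were chosen after their values were seen because they rose in both knockdowns. PLXNB1 had log2 fold changes of 0.53 in siQKI and 0.58 in siRBFOX2, and PLXNA3 of 0.36 and 0.41 (limma, adjusted p from 4.34e-05 to 7.83e-05). PLXNA3 overlaps LAGE3 (mean normalized count 38384), and strand was not stated, so its reads cannot be told apart from those of that neighbour. PLXNA1 rose by 0.15 on the log2 scale in siQKI (limma, adjusted p = 0.00837). PLXNA2, PLXNB3 and PLXNC1 did not pass the threshold in either knockdown.

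**Figure D2:**
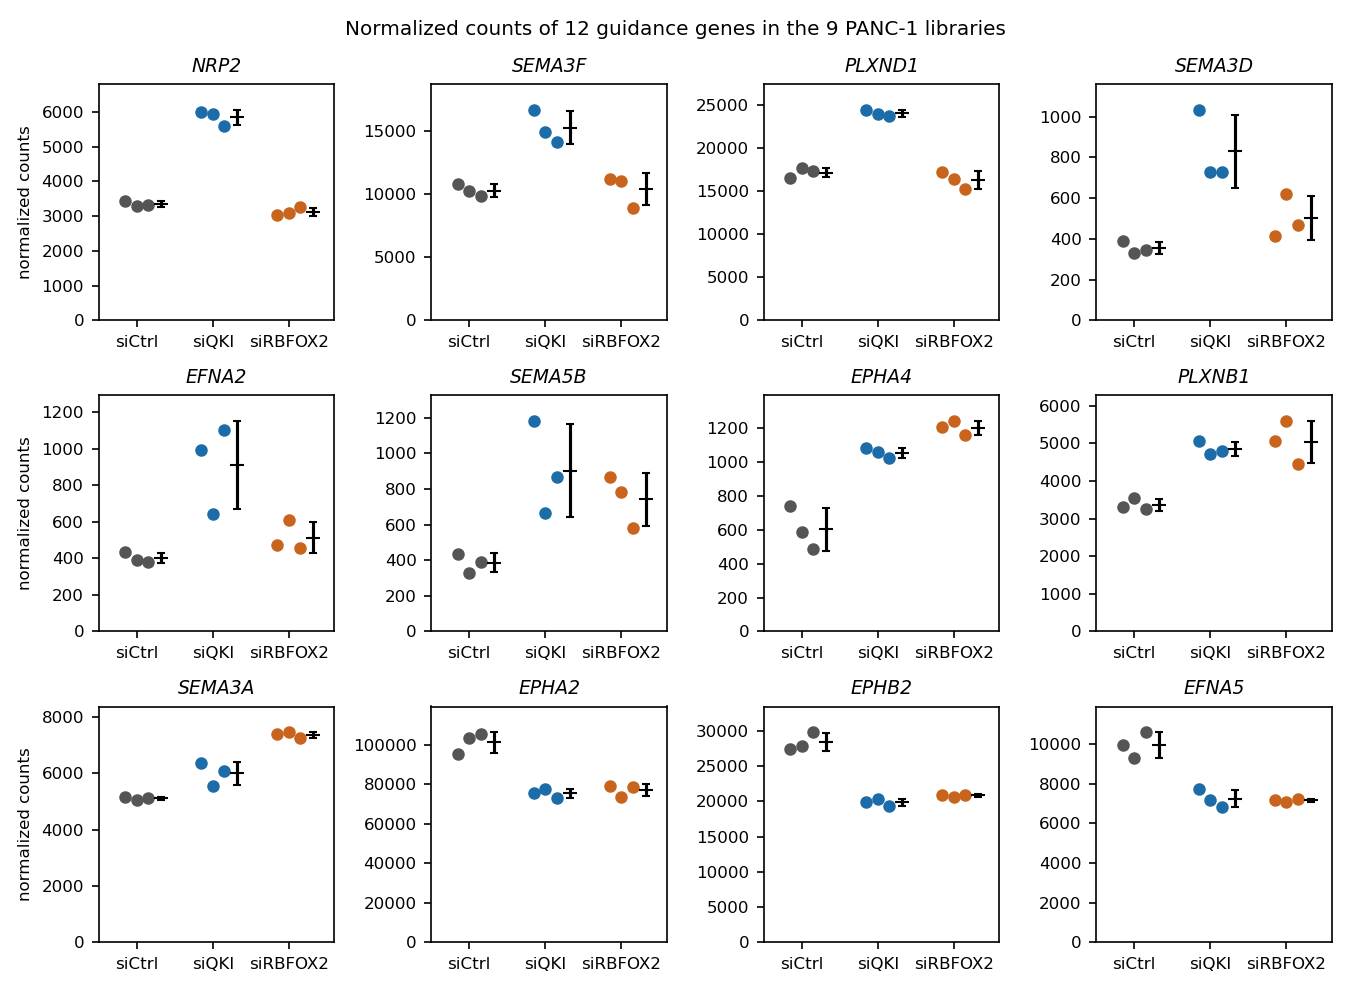
Normalized counts (vertical axis, from 0) of 12 guidance genes in the 3 siCtrl, 3 siQKI and 3 siRBFOX2 libraries of PANC-1, with each point a library and black bars the mean and SD. NRP2, SEMA3F and PLXND1 are high in the siQKI libraries only, SEMA3A is highest in siRBFOX2 libraries, and EPHA2, EPHB2 and EFNA5 are low after both knockdowns.

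Of 12 tested membrane semaphorins, 3 rose and 2 fell in siQKI (25.0% and 16.7%), not far from the 14.9% and 18.1% of all tested genes. In siRBFOX2, 5 rose and 1 fell (41.7% and 8.33%, where 12% and 14.5% of all tested genes did). SEMA5B, a transmembrane semaphorin with thrombospondin repeats, had 435, 329 and 391 normalized counts in siCtrl, 1184, 663 and 866 in siQKI and 869, 784 and 579 in siRBFOX2 libraries. Both knockdowns lay above the control and overlapped each other. Log2 fold changes were 1.20 ± 0.21 (limma, adjusted p = 0.000367) and 0.94 ± 0.21 (adjusted p = 0.0036).

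SEMA6C, a class 6 semaphorin that binds class A plexins, had 470, 456 and 454 normalized counts in siCtrl, 869, 771 and 801 in siQKI and 702, 623 and 529 in siRBFOX2 libraries. The 3 groups did not overlap, and log2 fold changes were 0.82 (limma, adjusted p = 0.000376) and 0.42 (adjusted p = 0.0436). The siRBFOX2 call was close to the threshold and was lost without any 1 of 8 of the 9 libraries, the exception being siRBFOX2 replicate 3 (adjusted p up to 0.176). SEMA6B rose by 0.46 on the log2 scale in siQKI (limma, adjusted p = 0.00915), with overlapping libraries, and the call was lost without siCtrl replicate 3 (adjusted p = 0.0564).

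SEMA4G passed the threshold in siRBFOX2 and not in siQKI. Its normalized counts were 616, 995 and 539 in siCtrl, 889, 778 and 752 in siQKI and 1242, 1292 and 942 in siRBFOX2 libraries, and siCtrl replicate 2 lay above siRBFOX2 replicate 3. The log2 fold changes were 0.73 ± 0.20 in siRBFOX2 (limma, adjusted p = 0.0116) and 0.22 in siQKI (adjusted p = 0.45), and the difference between the knockdowns was −0.51 (adjusted p = 0.0783). The siRBFOX2 call was lost without siCtrl replicate 3 (0.55, adjusted p = 0.0655) and without siRBFOX2 replicate 2 (0.64, adjusted p = 0.0537). SEMA4G overlaps MRPL43, which had a mean normalized count of 30051. SEMA4F also rose in siRBFOX2 (log2 fold change 0.42, limma, adjusted p = 0.000398), and siQKI lay below siRBFOX2 by −0.32 (adjusted p = 0.00371). SEMA4D, the PLXNB1 ligand, rose by 0.41 on the log2 scale in siRBFOX2 (limma, adjusted p = 0.0333), a call lost without siCtrl replicate 1 or 3 or siRBFOX2 replicate 2 or 3 (adjusted p up to 0.14).

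SEMA7A, a lipid-anchored semaphorin that binds integrins and PLXNC1, fell. It had 6580, 5713 and 6678 normalized counts in siCtrl, 5429, 5181 and 4780 in siQKI and 4724, 4425 and 4728 in siRBFOX2 libraries. All knockdown libraries lay under the lowest control. Log2 fold changes were −0.30 in siQKI (limma, adjusted p = 0.00391) and −0.45 in siRBFOX2 (adjusted p = 0.000249). SEMA4B, the most abundant membrane semaphorin of PANC-1 per kb, had 126762, 140675 and 136453 normalized counts in siCtrl, 123462, 117583 and 117816 in siQKI and 132186, 121191 and 128583 in siRBFOX2 libraries. It fell by 0.17 on the log2 scale in siQKI (limma, adjusted p = 0.00872) with libraries that did not overlap the control, a call lost with upper-quartile scaling (adjusted p = 0.0694) and without siCtrl replicate 2 (adjusted p = 0.0502).

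Of 11 tested Eph receptors, 6 rose in siQKI (54.5%, background 14.9%) and 3 fell (27.3%, background 18.1%). In siRBFOX2, 1 rose (9.09%, background 12%) and 3 fell (27.3%, background 14.5%). EPHA2, EPHB2 and EPHB6 fell, each with a mean of more than 2000 normalized counts, while EPHA4, EPHA5, EPHA7, EPHA10 and EPHB3, each under that level, rose in siQKI. EPHB4, above that level, also rose. The split by level was not particular to Eph receptors. All 6 members of any family that fell in siQKI had a mean of 2000 or more. In that class 36.4% of all genes fell. EPHA2, a receptor that is abundant in many carcinomas, had 95228, 103172 and 105219 normalized counts in siCtrl, 75284, 77465 and 73217 in siQKI and 79172, 73512 and 78729 in siRBFOX2 libraries. All knockdown libraries lay under all controls. Log2 fold changes were −0.43 ± 0.05 in siQKI (limma, adjusted p = 3.21e-06) and −0.39 ± 0.05 in siRBFOX2 (adjusted p = 1.33e-05). EPHA2 overlaps SPEN, which had a mean normalized count of 8667.

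EPHB2, a receptor of ephrin-Bs that orders cells in the intestinal crypt, had 27353, 27874 and 29835 normalized counts in siCtrl, 19930, 20260 and 19296 in siQKI and 20948, 20634 and 20848 in siRBFOX2 libraries. EPHB6, a receptor without kinase activity, had 4033, 4352 and 4530 in siCtrl, 3189, 2826 and 2968 in siQKI and 3494, 3510 and 3080 in siRBFOX2 libraries. Neither gene had a knockdown library that reached a control. EPHB2 fell by 0.52 on the log2 scale in siQKI (limma, adjusted p = 2.82e-07) and by 0.45 in siRBFOX2 (adjusted p = 2.41e-06), and EPHB6 fell by 0.52 (adjusted p = 7.3e-05) and by 0.36 (adjusted p = 0.00255).

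EPHA4, which binds ephrins of both classes, rose in both knockdowns. It had 738, 587 and 486 normalized counts in siCtrl, 1080, 1058 and 1020 in siQKI and 1203, 1242 and 1160 in siRBFOX2 libraries. The siRBFOX2 libraries were highest and the groups did not overlap. Log2 fold changes were 0.82 ± 0.14 (limma, adjusted p = 0.000294) and 1.01 ± 0.14 (adjusted p = 7.58e-05), and their difference did not pass the threshold (−0.19, adjusted p = 0.396).

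EPHA7, a receptor of ephrin-As, had 635, 505 and 680 normalized counts in siCtrl, 1037, 1098 and 989 in siQKI and 749, 706 and 638 in siRBFOX2 libraries. The siQKI libraries lay above the rest. The log2 fold change was 0.79 in siQKI (limma, adjusted p = 0.000398) and 0.21 in siRBFOX2 (adjusted p = 0.311), with a difference of 0.58 (adjusted p = 0.00693). EPHA5, known from the nervous system, had 203, 200 and 194 normalized counts in siCtrl, 271, 390 and 440 in siQKI and 296, 148 and 192 in siRBFOX2 libraries. Its siQKI call (0.85, limma, adjusted p = 0.0264) and its difference between the knockdowns (0.82, adjusted p = 0.0452) were close to the threshold. The siQKI call was lost without any single siCtrl library and without siQKI replicate 2 or 3 (adjusted p up to 0.117). The difference was lost without any 1 of 7 libraries, all but siQKI replicate 1 and siRBFOX2 replicate 1, with values down to 0.59 (adjusted p up to 0.178).

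EPHA10, a second receptor without kinase activity, had 322, 333 and 326 normalized counts in siCtrl, 667, 522 and 385 in siQKI and 399, 532 and 515 in siRBFOX2 libraries. EPHB3 had 269, 351 and 289 in siCtrl, 504, 535 and 424 in siQKI and 545, 473 and 344 in siRBFOX2 libraries, and it overlaps EIF2B5 (mean normalized count 15389.8). EPHA10 rose by 0.65 on the log2 scale after siQKI (limma, adjusted p = 0.024) and EPHB3 by 0.69 (adjusted p = 0.0162). In siRBFOX2 their log2 fold changes of 0.547 and 0.565 did not pass the threshold (limma, adjusted p = 0.0624 and 0.0526). The differences between the knockdowns did not pass it either (0.099 and 0.123, limma, adjusted p = 0.8 and 0.745). The siQKI call of EPHA10 was lost without siCtrl replicate 1 or 3 or siQKI replicate 1 or 2 (adjusted p up to 0.13), and that of EPHB3 without siCtrl replicate 1 or siQKI replicate 1 or 2 (adjusted p up to 0.0679). EPHB4, a receptor of EFNB2 in vessels, rose in siQKI (0.24, limma, adjusted p = 0.00209) and overlaps SLC12A9 (mean normalized count 4885). Of the tested receptors, EPHA8 and EPHB1 did not pass the threshold in either knockdown.

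Of 8 ephrins, 4 rose in siQKI (50.0%, background 14.9%) and 2 in siRBFOX2 (25.0%, background 12%). In each knockdown 1 ephrin fell (12.5%), near the 18.1% and 14.5% of all tested genes. EFNA2 had 435, 390 and 379 normalized counts in siCtrl, 993, 640 and 1102 in siQKI and 472, 609 and 456 in siRBFOX2 libraries. Every siQKI library lay above all others. The log2 fold change was 1.15 ± 0.20 in siQKI (limma, adjusted p = 0.000321) and 0.34 ± 0.20 in siRBFOX2 (adjusted p = 0.236), with a difference of 0.81 (adjusted p = 0.0078) that was lost without siQKI replicate 3 (adjusted p = 0.0509). EFNB3, an ephrin-B that marks the midline of the nervous system, had 944, 592 and 854 normalized counts in siCtrl, 1447, 1055 and 1628 in siQKI and 900, 1248 and 1044 in siRBFOX2 libraries. It rose by 0.79 on the log2 scale in siQKI (limma, adjusted p = 0.00415). In siRBFOX2, which overlapped the control, the log2 fold change was 0.43 (limma, adjusted p = 0.111). The difference between the knockdowns did not pass the threshold (0.36, limma, adjusted p = 0.209).

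EFNA1 and EFNA5, both ligands of EPHA2, moved in opposite directions. EFNA1 had 4923, 4812 and 5478 normalized counts in siCtrl, 8030, 7082 and 6128 in siQKI and 6658, 6497 and 5829 in siRBFOX2 libraries. EFNA5, chosen after its values were seen, had 9935, 9273 and 10612 in siCtrl, 7710, 7183 and 6834 in siQKI and 7160, 7064 and 7228 in siRBFOX2 libraries. Knockdown and control libraries did not overlap in either gene. EFNA1 rose by 0.48 on the log2 scale in siQKI (limma, adjusted p = 0.000582) and 0.32 in siRBFOX2 (adjusted p = 0.0133), the latter lost without siCtrl replicate 2 or siRBFOX2 replicate 1 (adjusted p = 0.0553 and 0.0579). EFNA5 fell by 0.46 on the log2 scale (limma, adjusted p = 2.81e-05) and by 0.47 (adjusted p = 3.56e-05).

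EFNB2, a ligand of EPHB4, rose by 0.17 on the log2 scale in siQKI (limma, adjusted p = 0.0331), a call lost without siCtrl replicate 2 or 3 or siQKI replicate 1 or 3 (adjusted p up to 0.129). EFNA4 rose by 0.32 on the log2 scale in siRBFOX2 (limma, adjusted p = 0.0145), a call lost without siCtrl replicate 2 or siRBFOX2 replicate 2 (adjusted p up to 0.0729). EFNB1, an X-linked ephrin whose loss disturbs craniofacial development, had 7338, 6120 and 7020 normalized counts in siCtrl, 6396, 6456 and 6425 in siQKI and 6132, 6750 and 7254 in siRBFOX2 libraries, and the groups overlapped. EFNA3 did not pass the threshold in either knockdown.

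Over all families, 12 of 48 members rose in siRBFOX2 (25.0%) where 12% of all tested genes rose, and 5 fell (10.4%) where 14.5% fell. Rises of at least 1.5-fold numbered 3 (background 4.09%) and falls of that size 0 (background 1.62%). Among members with a mean of 100 to 2000 normalized counts 5 of 16 rose (background 15.7%), and among those with 2000 or more 7 of 25 rose (background 16.4%) and 5 fell (background 30.4%). The median log2 fold change of the members in siRBFOX2 was 0.29, against 0.01 over all tested genes. Within level classes it was 0.457 against 0.139 at 100 to 2000 normalized counts, and 0.007 against −0.054 at 2000 or more.

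Downstream genes were read in the same way. A list of 60 adaptors, kinases, GTPase regulators and co-receptors, of which 59 were tested, held 7 that rose and 22 that fell in siQKI (11.9% and 37.3%), and 7 that rose and 20 that fell in siRBFOX2 (11.9% and 33.9%). The background shares are those given above for all genes tested. Most genes of the list are abundant, and of the 44 with a mean of 2000 or more, 6 rose and 20 fell in siQKI (13.6% and 45.5%, where 19.7% and 36.4% of all genes in that class did). In siRBFOX2, 4 of the 44 rose and 18 fell (9.09% and 40.9%, where 16.4% and 30.4% did).

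Falls of at least 1.5-fold in siQKI were found for 6 of the 59 downstream genes tested: TIAM1, CRKL, FARP1, CFL1, GRB7 and PAK1. Of all tested genes, 3.16% fell by as much. TIAM1, a Rac exchange factor that ephrin-Bs and EPHA2 recruit, had 1698, 1773 and 1680 normalized counts in siCtrl, 729, 767 and 700 in siQKI and 1344, 1391 and 1109 in siRBFOX2 libraries. It fell by 1.23 on the log2 scale in siQKI (limma, adjusted p = 6.01e-07) and by 0.43 in siRBFOX2 (adjusted p = 0.00846), and the groups did not overlap.

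CRKL, an adaptor, had 26483, 25965 and 27071 normalized counts in siCtrl, 15276, 15181 and 14346 in siQKI and 21407, 21650 and 22080 in siRBFOX2 libraries. FARP1, an exchange factor downstream of class A plexins, had 15168, 14854 and 15105 in siCtrl, 9751, 9336 and 9324 in siQKI and 12734, 12341 and 11598 in siRBFOX2 libraries. In both genes the siQKI libraries were lowest and the groups did not overlap. CRKL fell by 0.83 and by 0.29 on the log2 scale in siQKI and siRBFOX2, and FARP1 fell by 0.67 and by 0.30 (limma, adjusted p from 1.58e-09 to 0.000231).

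CFL1 (cofilin), which severs actin filaments downstream of semaphorins, had 1561402, 1556265 and 1562924 normalized counts in siCtrl, 1026411, 972275 and 973072 in siQKI and 1499017, 1428364 and 1485782 in siRBFOX2 libraries. It fell by 0.66 on the log2 scale in siQKI (limma, adjusted p = 1.24e-08) and had −0.09 in siRBFOX2 (adjusted p = 0.136). PAK1, a Rac effector kinase, had 23429, 22545 and 24457 normalized counts in siCtrl, 14978, 16346 and 15405 in siQKI and 18607, 18613 and 18443 in siRBFOX2 libraries. The siQKI libraries of both genes lay under all others.

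GRB7, an adaptor of EPHB1, had 770, 924 and 860 normalized counts in siCtrl, 617, 517 and 543 in siQKI and 639, 516 and 636 in siRBFOX2 libraries, and the knockdowns overlapped each other under the control. GRB7 and PAK1 fell by 0.61 and by 0.59 on the log2 scale in siQKI (limma, adjusted p = 0.00426 and 1.36e-07). MICAL2, an actin-oxidizing enzyme related to the plexin partner MICAL1, had 51723, 48913 and 51746 normalized counts in siCtrl, 35186, 34673 and 33116 in siQKI and 33717, 31766 and 31131 in siRBFOX2 libraries. It fell by 0.57 on the log2 scale in siQKI and by 0.66 in siRBFOX2 (limma, adjusted p = 1.22e-07 and 5.96e-08).

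Rises of at least 1.5-fold in siQKI were found for 3 of the 59 downstream genes tested: L1CAM, ERBB2 and RND1. That number is near the 5.87% of all tested genes that rose by as much. L1CAM, an adhesion protein that forms a complex with NRP1, had 85413, 80038 and 77673 normalized counts in siCtrl, 149922, 136113 and 134520 in siQKI and 82178, 85016 and 76658 in siRBFOX2 libraries. Only the siQKI libraries lay above the control, with a log2 fold change of 0.79 (limma, adjusted p = 2.47e-08) beside 0.00 in siRBFOX2 (adjusted p = 0.967).

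ERBB2, a receptor kinase that associates with PLXNB1, had 10319, 10190 and 9373 normalized counts in siCtrl, 16912, 14937 and 15880 in siQKI and 13815, 14132 and 13005 in siRBFOX2 libraries. The groups did not overlap, and it rose by 0.68 on the log2 scale in siQKI and 0.46 in siRBFOX2 (limma, adjusted p = 3.2e-07 and 2.91e-05). MET, another receptor kinase that associates with class B plexins, was chosen after its values were seen and fell by 0.16 and by 0.29 on the log2 scale (limma, adjusted p = 0.0117 and 0.000208).

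RND1, a GTPase that binds plexins, had 211, 371 and 362 normalized counts in siCtrl, 742, 473 and 496 in siQKI and 519, 569 and 736 in siRBFOX2 libraries. Both knockdowns lay above the control, with rises of 0.87 and 0.98 on the log2 scale (limma, adjusted p = 0.011 and 0.00686). MICAL1, chosen after its values were seen, fell by 0.32 on the log2 scale in siQKI and rose by 0.34 in siRBFOX2, with a contrast between them past the threshold (limma, adjusted p = 6.69e-08).

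The lines were then set side by side. The authors normalized the lines apart from each other, so all libraries were brought to 1000000 counts (rescaled counts) and no test was run. Of 49 members that averaged 10 or more normalized counts in HPAF-II or in PANC-1 siCtrl, 18 were higher in HPAF-II by at least 2-fold with libraries that did not overlap (background 21.1%), 17 were lower (background 21.6%) and 14 were neither. Both directions together covered 71.4% of the members and 42.7% of all genes compared. The HPAF-II replicates were uneven for these genes: replicate 3 was the highest of the 3 for 28 of 45 members detected there, against 38.1% of all genes. Of the 4 mesenchymal markers, VIM, ZEB1 and CDH2 also separated the lines, and FN1 did not. VIM averaged 5422 rescaled counts in PANC-1 siCtrl libraries and had 15.2, 0.283 and 0.300 in the HPAF-II libraries. ZEB1 averaged 28.7 in PANC-1 siCtrl and 1.09 in HPAF-II, and CDH2 39.0 and 0. FN1 averaged 0.392 and 0.132, with libraries that overlapped. The part of these markers in the differences below was not tested.

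**Figure D3:**
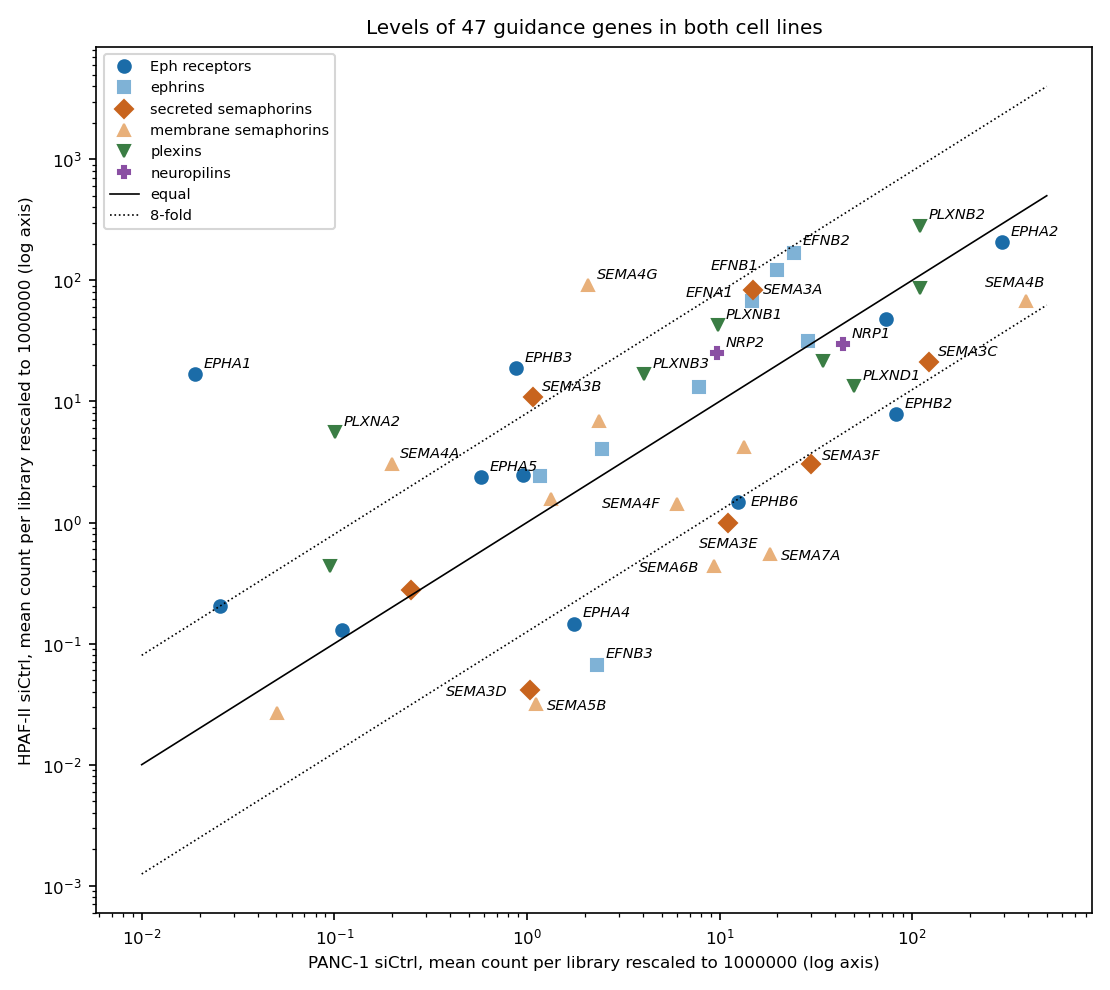
Mean rescaled count of 47 guidance genes in the 3 PANC-1 siCtrl (horizontal) and 3 HPAF-II siCtrl libraries (vertical), both on log axes, with equality as a solid line and 8-fold differences as dotted lines. EPHA1, PLXNA2, SEMA4G, SEMA4A, EPHB3 and SEMA3B lie above the upper dotted line, and SEMA7A, SEMA5B, SEMA3D and EFNB3 lie far under the lower one. EPHA7 and EPHA8, listed at 0 in every HPAF-II library, are not drawn.

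Among members higher in HPAF-II, SEMA4G had 91.4, 83.1 and 98.5 rescaled counts in HPAF-II and 1.82, 2.86 and 1.56 in PANC-1 siCtrl libraries, a ratio of 43.8 between the means, with the overlap with MRPL43 named above. EPHA1 had 14.8, 14.6 and 20.8 rescaled counts in HPAF-II libraries, while in PANC-1 siCtrl it had at most 0.0339 and was listed at 0 in 1 of 3 libraries. EPHB3, a receptor of intestinal and pancreatic epithelium, had 17.9, 14.8 and 23.9 rescaled counts in HPAF-II and 0.794, 1.01 and 0.836 in PANC-1 siCtrl libraries (21.5-fold).

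SEMA3B had 8.43, 8.50 and 15.8 rescaled counts in HPAF-II and 0.986, 1.5 and 0.746 in PANC-1 siCtrl libraries (10.1-fold). SEMA3A had 82.4, 111 and 57.9 against 15.2, 14.5 and 14.8 rescaled counts (5.65-fold). Among ephrins, EFNB2 was 6.94-fold, EFNB1 6.08-fold and EFNA1 4.59-fold higher in HPAF-II. The class B plexins stood on the same side, with PLXNB1 4.39-fold, PLXNB3 4.12-fold and PLXNB2 2.57-fold higher, and NRP2 was 2.58-fold higher.

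Among members lower in HPAF-II, SEMA7A had 0.132, 0.738 and 0.778 rescaled counts in HPAF-II and 19.4, 16.4 and 19.3 in PANC-1 siCtrl libraries, a ratio of 33.5 in favour of PANC-1. EPHB2 had 7.51, 8.92 and 7.12 rescaled counts in HPAF-II and 80.7, 80.1 and 86.4 in PANC-1 siCtrl libraries (10.5-fold lower). SEMA3F had 2.81, 2.89 and 3.44 against 31.8, 29.3 and 28.5 rescaled counts (9.81-fold lower). In each of these genes the lines were far outside each other's range.

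SEMA3E had 1.31, 0.989 and 0.678 rescaled counts in HPAF-II and 10.4, 11.4 and 11.4 in PANC-1 siCtrl libraries (11.2-fold lower), and EPHB6 had 1.60, 1.19 and 1.66 against 11.9, 12.5 and 13.1 (8.44-fold lower). SEMA3C was 5.82-fold, SEMA4B 5.81-fold and PLXND1 3.75-fold lower in HPAF-II. SEMA5B, SEMA3D, EFNB3, SEMA6B and EPHA4 were also lower, from PANC-1 means of 1.03 to 9.38 rescaled counts, but their HPAF-II levels were uneven. SEMA3D and SEMA5B were listed at 0 in all but 1 HPAF-II library each, and EPHA4 had 0.428, 0 and 0.00969 rescaled counts there. With 1 library left out, the log2 ratio of EPHA4 ran from −6.90 to −2.95, lowest without HPAF-II replicate 1. That of SEMA3D ran from −6.71 to −3.86, lowest without the same library, and that of SEMA5B from −6.82 to −4.29, lowest without HPAF-II replicate 2. SEMA6B had 1.02, 0.176 and 0.126 rescaled counts in HPAF-II libraries. EPHA7, at 1.87, 1.45 and 1.97 in PANC-1 siCtrl, was listed at 0 in all HPAF-II libraries. EPHA2 differed by less, with 170, 193 and 254 rescaled counts in HPAF-II and 281, 296 and 305 in PANC-1 siCtrl libraries (1.43-fold lower), as did NRP1 (1.47-fold lower).

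Per kb of the longest coding transcript, a single member led most families. EPHA2 made up 72.1% ± 0.63 (SD, n = 3) of the Eph receptor counts per kb in PANC-1 siCtrl and 69.9% ± 2.1 in HPAF-II libraries. SEMA4B made up 88.0% ± 0.38 of the membrane semaphorins in PANC-1 siCtrl and 39.4% ± 5.8 in HPAF-II, where SEMA4G held 51.3% ± 6.1. With the median length of the coding transcripts, which was added once the values were known, SEMA4G held 32.4% and SEMA4B 61.1% in HPAF-II, so the order of these 2 genes depends on the length used. SEMA3C made up 66.8% ± 1.4 of the secreted semaphorins in PANC-1 siCtrl and 21.2% ± 3.9 in HPAF-II, where SEMA3A led with 52.9% ± 8.6. With the median length, SEMA3C held 41.1% and SEMA3A 33.2% in PANC-1 siCtrl.

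PLXNB2 held 41.5% ± 1.1 of the plexin counts per kb in PANC-1 siCtrl and 66.6% ± 2.1 in HPAF-II. PLXND1 held 16.9% ± 0.29 of them in PANC-1 siCtrl and 2.82% in HPAF-II libraries. With the median transcript length, PLXND1 (44.3%) stood just above PLXNB2 (43.6%) in PANC-1 siCtrl, and PLXNB2 held 77.1% in HPAF-II. Ephrins had no dominant member: EFNA1 led in PANC-1 siCtrl with 22.9% ± 1.1, and EFNB1 (28.4% ± 5.3), EFNA1 (27.9% ± 2.2) and EFNB2 (27.0% ± 4.8) were within their spread of each other in HPAF-II. Of the neuropilins, NRP2 held 42.8% ± 1.3 in HPAF-II. After siQKI the leading members kept their place in PANC-1, with EPHA2 at 65.5% ± 0.69 and SEMA3C at 62.2% ± 2.0.

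**Figure D4:**
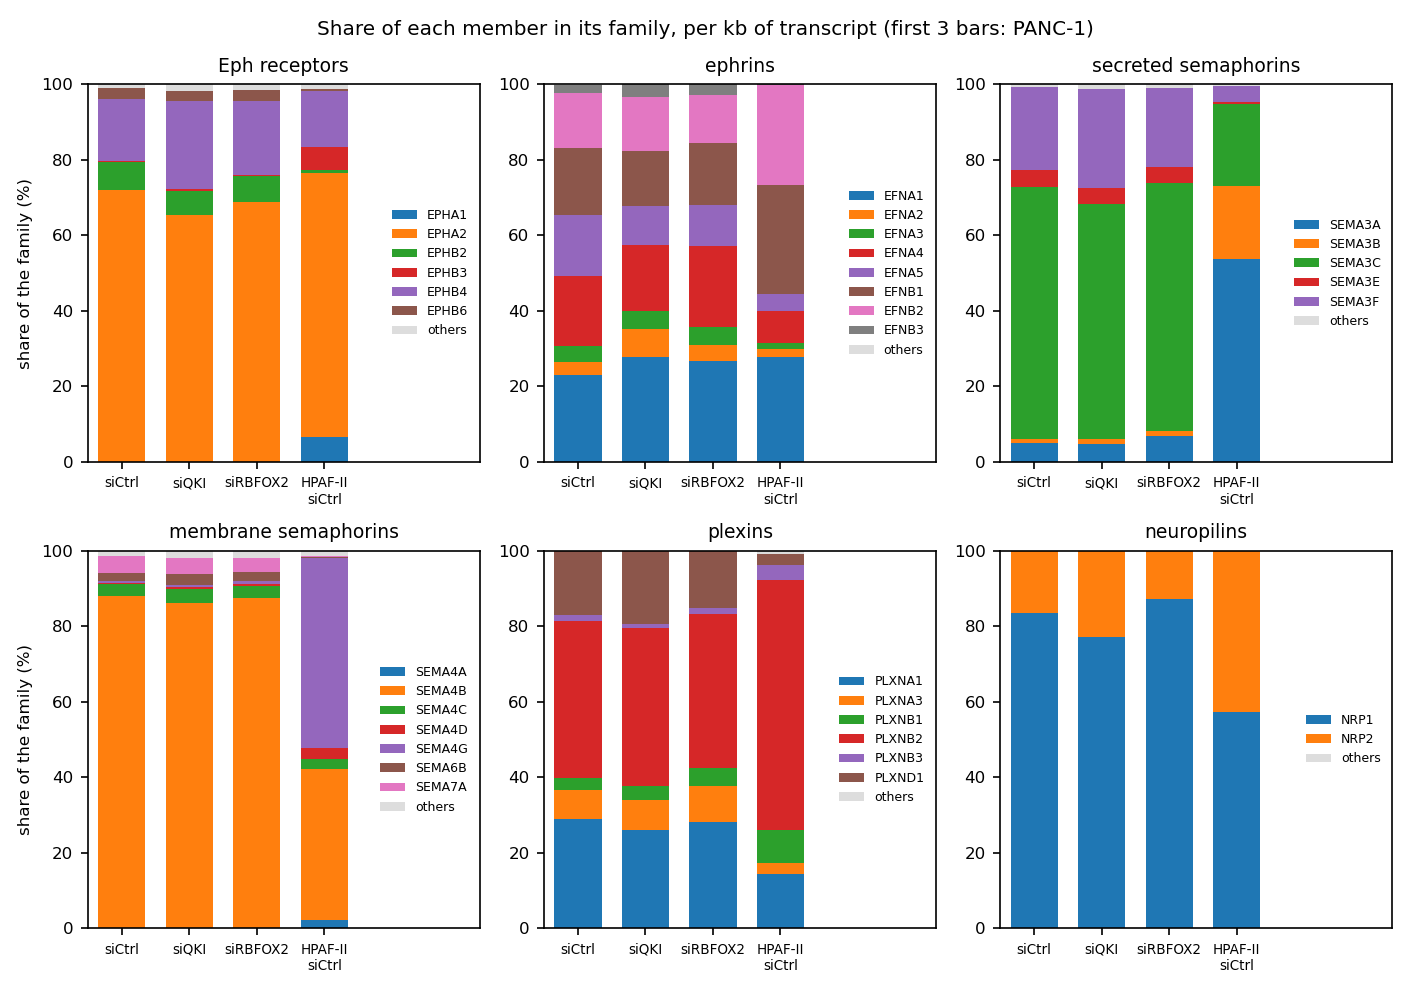
Share of each member in the summed level of its family, in percent of rescaled counts per kb (group means of 3 libraries), for PANC-1 siCtrl, siQKI and siRBFOX2 and for HPAF-II siCtrl; members that never reach 2% are pooled as others. EPHA2 and PLXNB2 lead in both lines, while SEMA3C and SEMA4B lead in PANC-1 and SEMA3A and SEMA4G in HPAF-II; with the median transcript length PLXND1 leads in PANC-1 siCtrl and SEMA4B in HPAF-II.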

How the data were processed

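PolyA RNA libraries were sequenced by the authors as 150-base read pairs, and the labels' processing notes name STAR 2.7.5a, SAMtools, Picard, FastQC, DESeq2 and hg38. The deposited signal values are counts per FAST DB gene, scaled by the authors with DESeq2 size factors, separately for the 9 PANC-1 and the 3 HPAF-II libraries. All values were whole multiples of a step (tolerance 0.01), but 82.1% to 84.8% of values of 1 to 30 steps were multiples of 3. Steps are therefore not fragments, and the depth is unknown. PANC-1 libraries totalled 292248837 to 376192091 steps, and HPAF-II libraries 226697015 to 309720537. Strand is not given in the sources used here. One motif window is not reported here.

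The 9 PANC-1 libraries were fitted together with limma 3.58.1 (R 4.3.3; lmFit, eBayes with trend) on log2(normalized count + 1), for the 22544 genes that averaged 10 or more. P-values were adjusted by Benjamini-Hochberg over all of these, with a threshold of 0.05. The fit was tested on simulated data. The pseudocount draws low values together on the log2 scale. The fitted changes average log2 values, so in low and uneven genes they can still exceed the ratio of the means. SEMA3G had a fitted log2 fold change of 1.67 in siQKI, where the siQKI mean was 2.52 times the siCtrl mean. The median SE of a log2 fold change was 0.14. Lines were compared without a test on libraries rescaled to 1000000 (pseudocount 0.01). Levels per kb used the longest coding transcript of GENCODE release 29, which gave a length for all 53 members. Tables were handled in Python 3.11.15 with pandas 2.3.3, numpy 2.4.6 and matplotlib 3.10.9.

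Per-library values are given for members past the threshold with a change of at least 1.5-fold and a mean of at least 50, for the leading member of each family in each line, for members with at least 10 rescaled counts in a line that differ at least 8-fold between the lines, and for downstream genes past the same threshold and fold. Other members were named after their values were seen. The members and gene lists were chosen with earlier results of these data known. Alternatives were other pseudocounts, filters, scalings and thresholds, a fit of only the groups compared, no trend, a replicate block and each library left out.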

Additional observations from a re-analysis of the deposited data

How the results depend on the processing

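Of 222 recalculated counts and shares, 201 stayed within 1.5 times the reported count or 1 SD of the reported share. Shares recalculated with 1 of 3 libraries left out always stay within 1 SD, so that part of the tally could not fail. No fold change past the threshold and no line ratio of at least 2-fold changed sign. Asking for a 1.5-fold change left 13 members higher and 0 lower in siQKI (3 secreted semaphorins), 3 higher and 0 lower in siRBFOX2, 4 that differed between the knockdowns, and 9 and 3 downstream genes in siQKI and siRBFOX2. An adjusted p under 0.01 left 7 members higher in siRBFOX2 and 17 downstream genes, and a limma fit without the trend also left 17. Leaving out 1 library gave 21 to 27 members higher and 5 to 6 lower in siQKI, 8 to 12 higher and 5 lower in siRBFOX2, 12 to 14 between the knockdowns, 5 to 7 secreted semaphorins, 26 to 29 and 21 to 27 downstream genes, and 17 to 19 members higher or lower in HPAF-II. Among the fits with 1 library left out, the fewest members rose in siQKI without siCtrl replicate 3 (21) and in siRBFOX2 without siRBFOX2 replicate 2 (8). The fit without the trend kept 25 of the 33 members called in siQKI. It lost the rises of EFNB2, EPHA10, EPHA5, PLXNA1, SEMA3B, SEMA3G and SEMA6B and the fall of SEMA4B. In siRBFOX2 it kept 13 of 17, losing EFNA1, EFNA4, SEMA4D and SEMA4G. Between the knockdowns it lost EFNA2, EPHA5, SEMA3C and SEMA3D and gained SEMA6C.

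With a replicate block, 27 members rose and 6 fell in siQKI, and 14 rose and 5 fell in siRBFOX2, where EPHB3 and SEMA3B passed the threshold; EPHA5 no longer differed between the knockdowns and SEMA4G did. The replicate numbers did not pair the samples: deviations of same-numbered libraries correlated at −0.03 to 0.02, and of others at −0.03 to 0.04.

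With the median transcript length, chosen after the data were seen, EPHA2 held 59.9% of Eph receptor counts per kb in PANC-1 siCtrl and 66.2% in HPAF-II, EFNA1 24.2%, SEMA3C 41.1% and SEMA4B 94.2% of their families in PANC-1 siCtrl, SEMA3A 91.8% and SEMA4G 32.4% in HPAF-II, PLXNB2 43.6% and 77.1%, and NRP1 84.0% in PANC-1 siCtrl. Values of members with a mean under 100 normalized counts are limited by replicate spread, and depth in fragments is unknown.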
